A study of Danaus plexippus with 48 samples.

Results

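In brains of monarch butterflies kept in short days, the 8 pools numbered rep1 were set against the 8 pools numbered rep2. These 16 SP (short photoperiod) libraries, of 48 in the series, were taken by the group, time and replicate number in their titles. At each of 8 zeitgeber times (ZT, hours after lights-on: 1, 4, 7, 10, 13, 16, 19 and 22) there was 1 rep1 pool, labelled male, and 1 rep2 pool, labelled female, so the pools formed 8 pairs. In the LP (long photoperiod) and Migrant groups the labels ran the other way: rep1 was female and rep2 male. Replicate number and sex label are therefore both given, and within SP alone the number and the label cannot be told apart.

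All butterflies were wild-type. SP and LP animals were laboratory-raised offspring of wild-type crosses, with larvae on a semi-artificial diet from the second instar. Light lasted 10 h and dark 14 h in SP, 15 h and 9 h in LP, and 11 h and 13 h in the wild-caught Migrants, which had been captured in the fall. All were kept at 21 °C for at least 7 days before dissection, and the pigmented photoreceptor layer of the retina was taken off each brain. Each library was a pool of 3 brains. SP and LP libraries were made with the TruSeq Stranded mRNA kit and Migrant libraries with the NEBNext Ultra Directional kit, which means that for Migrants the group cannot be separated from its kit and origin. The labels do not say whether pools came from separate rearings, so p-values measure the spread between these pools. The SP libraries held between 5.47 and 9.46 M recovered reads in genes (M, 1e6 reads). No gene identifier could be matched to a name, so roles of single genes and markers of brain or retina are not given.

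In butterflies and moths, females carry a Z and a W chromosome and males a pair of Z chromosomes. Genes on the W can be transcribed in females only, and other genes can be transcribed in 1 sex through regulation downstream of sex determination. The brain houses the neurons of the circadian clock that reads day length, which in monarchs separates summer breeding from fall migration. In a pooled brain sample, fewer cells of a type and less RNA per cell cannot be told apart.

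A few genes separated the SP rep1 and rep2 pools almost completely. Levels are in FPKM, fragments per length of transcript and per depth of library. Of the 15130 genes in the tables, 12 (0.0793%) were listed at 0 in at least 7 of 8 pools of 1 replicate number and in at most 1 of the other. Of these, 7 were present in rep1 and 5 in rep2. They were chosen after their values were seen, and 9 of the 12 had a mean FPKM of at least 0.5 across all 48 libraries, the filter for testing. In the replicate number where each was present, mean recovered reads per library ran from 0.53 to 52.7. Some of the 12 thus rest on very few reads.

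DPOGS212555 lies on scaffold DPSCF300075 from 514515 to 516817, in the coordinates of the deposited tables. In SP rep1 it was listed at 0 in 7 of 8 pools, and the ZT1 pool had an FPKM of 0.63. In SP rep2 its lowest FPKM was 13.6, the median 15.6 and the highest 21.2, so the groups did not overlap. The rep1 minus rep2 difference was -4.00 ± 0.14 (SE) on the log2(FPKM + 1) scale (limma, adjusted p = 2.25e-06). This rested on about 26.5 recovered reads per rep2 library. No fold is given for a gene listed at 0 in most pools of a group, because the difference then depends on the pseudocount of 1.

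DPOGS203943, on DPSCF300005 from 68288 to 69431, had the same pattern. It was listed at 0 in 7 of 8 rep1 pools, with an FPKM of 0.28 at ZT16. In rep2 the lowest, median and highest FPKM were 6.55, 9.05 and 9.65. Its difference was -3.20 ± 0.13 (SE; limma, adjusted p = 2.84e-06), from about 52.7 recovered reads per rep2 library.

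Other genes were present in rep1 instead. DPOGS204974, on DPSCF300123 from 233962 to 235557, had a lowest FPKM of 6.20, a median of 8.62 and a highest of 13.9 in rep1. In rep2 it was listed at 0 in 7 of 8 pools, with 0.595 at ZT22. The difference was 3.25 ± 0.15 (SE; limma, adjusted p = 7.09e-06). DPOGS209204, on DPSCF300061 from 808437 to 816762, ranged in rep1 from 1.14 to 19.5 around a median of 8.53. In rep2 it was listed at 0 in 2 pools, with a median of 0.295 and a highest value of 0.621. All 8 rep1 pools were above all 8 rep2 pools, with a difference of 2.68 ± 0.38 (SE; limma, adjusted p = 0.0135). That call was lost without the ZT7 pair (limma, adjusted p = 0.0521), without the ZT10 pair (0.0611) and with the main axis of spread between libraries as a covariate (0.225), where the difference was 2.36 ± 0.61 (SE).

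DPOGS211681 and DPOGS213736 had the most recovered reads of the 7 genes present in rep1, about 52.1 and 33.3 per rep1 library. DPOGS211681, on DPSCF300151 from 414398 to 415620, had rep1 values of 3.69, 4.72 and 5.33 (lowest, median, highest FPKM). It was listed at 0 in 7 rep2 pools, and the ZT16 pool had 0.173, a difference of 2.46 ± 0.10 (SE; limma, adjusted p = 3.13e-06). DPOGS213736, on DPSCF300619 from 2733 to 6137, had rep1 values of 0.761, 1.57 and 3.38 and was listed at 0 in all 8 rep2 pools, a difference of 1.40 ± 0.15 (SE; limma, adjusted p = 0.00408). Neither gene overlapped between rep1 and rep2.

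In LP and Migrant, DPOGS212555, DPOGS203943, DPOGS211681 and DPOGS213736 were high in the pools of the same replicate number as in SP, which carry the opposite sex label. DPOGS212555 was listed at 0 in all 8 LP rep1 pools, labelled female, and had 13.0 to 24.2 FPKM in the LP rep2 pools, labelled male. In Migrants it was listed at 0 in all 8 rep1 pools and had 2.67 to 6.40 FPKM in rep2. DPOGS211681 had 0.896 to 2.47 FPKM in LP rep1 and 0.928 to 4.36 in Migrant rep1, and was listed at 0 in 8 LP rep2 pools and 5 Migrant rep2 pools. Under the labels as given, DPOGS212555 was thus near 0 in males of SP and in females of LP and Migrant. Whether labels or numbers were exchanged in a group was not tested.

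**Figure D1:**
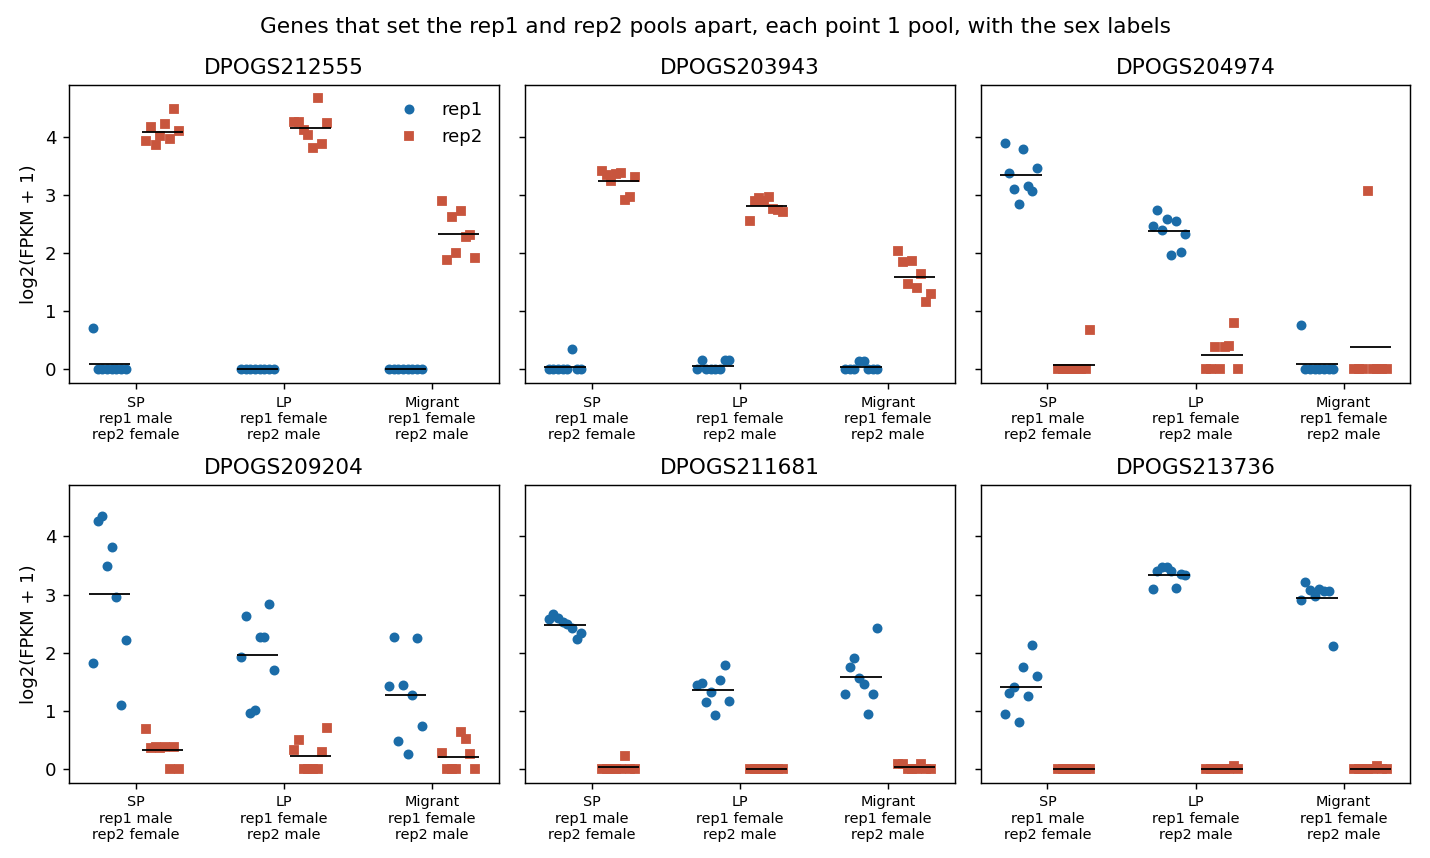
Levels of 6 genes as log2(FPKM + 1), each point 1 pool in order of time within its group, with bars at the mean of 8 pools. Blue circles are rep1 and red squares rep2, with the sex labels under each group. DPOGS212555 and DPOGS203943 have the higher mean in rep2 of all 3 groups, DPOGS209204, DPOGS211681 and DPOGS213736 in rep1 of all 3, and DPOGS204974 in rep1 of SP and LP.

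DPOGS204974 and DPOGS213736 show how SP differed in level from the other groups. DPOGS204974 had 2.91 to 5.64 FPKM in LP rep1 and at most 0.739 in LP rep2. In Migrants it was listed at 0 in 7 of 8 pools of each replicate number. The exceptions were the rep1 pool of ZT1, with 0.689 FPKM, and the rep2 pool of ZT10, with 7.40. The latter value lay within the SP rep1 range of 6.20 to 13.9. DPOGS213736 had 7.55 to 10.1 FPKM in LP rep1 and 3.36 to 8.34 in Migrant rep1. All LP rep1 values and 7 of 8 Migrant rep1 values were above the highest SP rep1 value of 3.38. Its rep1 minus rep2 difference was 3.32 ± 0.12 (SE) in LP, and the SP difference departed from it by a gap of -1.92 ± 0.17 (limma, adjusted p = 5.25e-07).

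Across the transcriptome, 790 of 11630 tested genes (6.79%) were called between SP rep1 and rep2 at a Benjamini-Hochberg adjusted p under 0.05 (limma, 8 pairs). Of these, 169 (1.45%) were higher in rep1 and 621 (5.34%) in rep2, and 90 (0.774%) were at least 2-fold apart, 18 higher in rep1 and 72 in rep2. The unadjusted p was under 0.05 for 5216 genes. A positive sign means higher in rep1 throughout. The median difference over all tested genes was -0.16, so the split between directions depended on scaling: with median-ratio scaling 648 genes were higher in rep1 and 467 in rep2, and with quantile normalization 544 and 434. None of the 4 genes named above by the rule for this comparison, DPOGS212555, DPOGS203943, DPOGS204974 and DPOGS209204, changed sign under any alternative run.

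The count of 790 depended on which pairs were in the fit. Without the ZT19 pair, 5607 genes (48.2%) were called, 1199 higher in rep1 and 4408 in rep2, and they included all 790. That pair was known beforehand to run the other way, so a rise without it is no independent result. Over the other settings the count was lowest with the main axis of spread as a covariate, described further on (38). It was highest with all 48 libraries in the fit (5047), and without the ZT block it was 4749. Without any 1 of the other 7 pairs, the count fell to between 40 and 84. It was 73 without ZT1, 52 without ZT4, 40 without ZT7, 48 without ZT10, 54 without ZT13, 84 without ZT16 and 55 without ZT22.

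**Figure D2:**
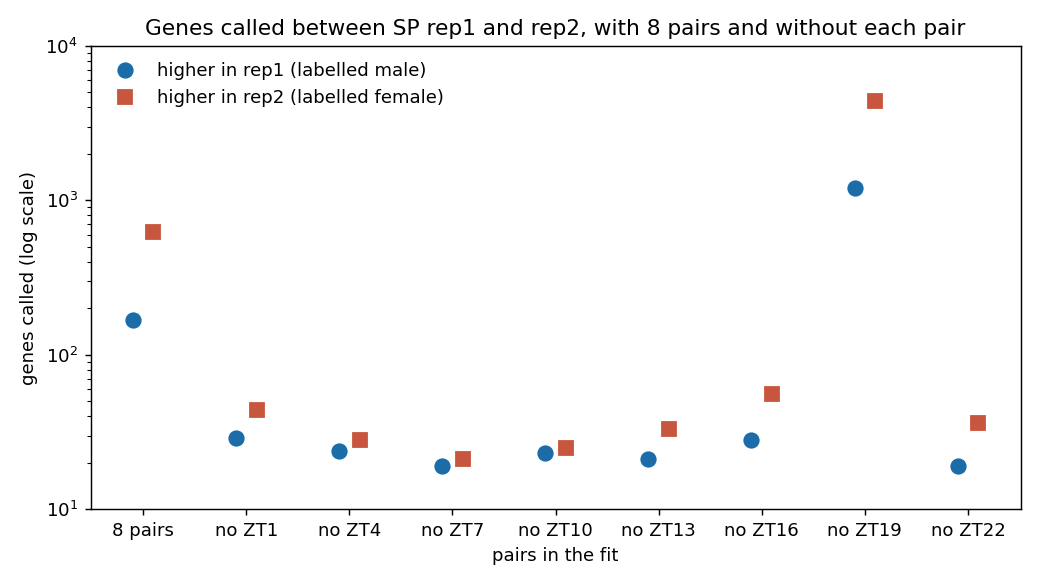
Genes called between SP rep1 and rep2 (limma, adjusted p under 0.05) on a log axis, with all 8 pairs and with each pair left out. Blue circles count genes higher in rep1 and red squares genes higher in rep2. Leaving out ZT19 raised the counts to 1199 and 4408, and leaving out any other pair gave at most 29 genes higher in rep1 and 56 in rep2.

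A set of 37 genes (0.318%) was called with 8 pairs and again in each of the 8 fits without 1 pair, a count added after the data were examined. Of these, 18 were higher in rep1 and 19 in rep2. All 37 had 1 sign at all 8 pairs, and the rep1 and rep2 pools did not overlap for 32 of them. For comparison, 186 of all tested genes (1.60%) did not overlap, 50 higher in rep1 and 136 in rep2. Absolute differences ran from 0.41 to 4.0 with a median of 0.85, and 12 of the 37 were at least 2-fold apart.

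The 37 genes had the same direction by replicate number in most other pools. In LP, 35 of 37 had the same sign, against 51.0% of all tested genes. Of the 37, 22 were themselves called in LP with the same sign and 0 with the opposite sign, where 142 of 11630 genes (1.22%) were called in all. In Migrants, 34 of 37 had the same sign, against 58.0% of all tested genes. There 14 were called with the same sign and 0 with the opposite sign, out of 103 called genes (0.886%). By sex label these directions are the reverse of those in LP and Migrant.

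**Figure D3:**
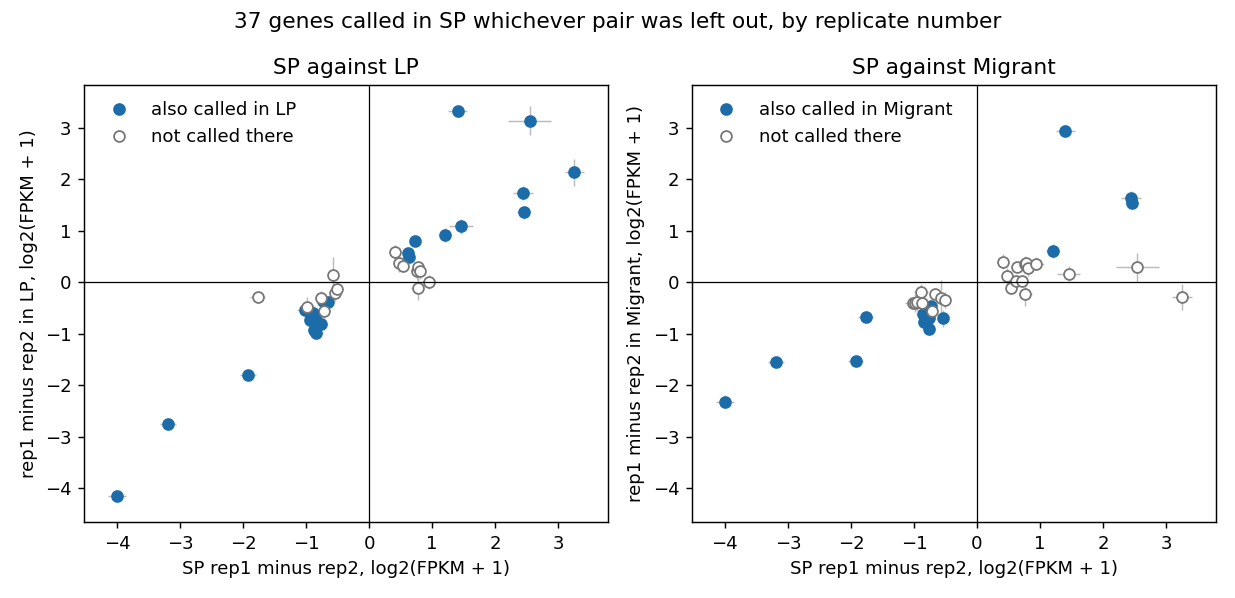
Rep1 minus rep2 differences of the 37 genes in SP (x) against LP (left, y) and Migrant (right, y), on the log2(FPKM + 1) scale, with bars of 1 SE. Filled points were also called in the other group. Points with the same sign on both axes number 35 of 37 for LP and 34 of 37 for Migrant.

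Of the 790 genes called with 8 pairs, 581 (73.5%) had the same sign in LP by replicate number and 632 (80%) in Migrant. LP called 62 of them with the same sign and 0 with the opposite sign. Migrant called 42 and 2. Read the other way, 129 of the 142 genes called in LP and 88 of the 103 called in Migrant had the same sign in SP. The 5607 genes called without ZT19 had the same sign in LP in 50.1% of cases, and all tested genes in 50.1%. In Migrant the shares were 64.2% and 57.5%.

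The SP pairs differed in size as well as sign. The median absolute difference over 11630 genes was 0.60 at ZT1 and 0.57 at ZT4, between 0.34 and 0.37 at ZT7, ZT10 and ZT22, and 0.18, 0.23 and 0.25 at ZT13, ZT16 and ZT19. At ZT1, 3382 genes (29.1%) were at least 2-fold apart between the 2 pools, and at ZT4 3139 (27.0%). The counts were 807 (6.94%) at ZT7, 1202 (10.3%) at ZT10, 488 (4.20%) at ZT13, 696 (5.98%) at ZT16, 729 (6.27%) at ZT19 and 1201 (10.3%) at ZT22. These are counts between single pools, with no test. Most of these genes were higher in rep2 at every time except ZT19, though only by a small margin at ZT13. Those higher in rep2 numbered 2991 at ZT1, 2761 at ZT4 and 1070 at ZT10. At ZT19, 502 were higher in rep1 and 227 in rep2.

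Pools of the same time lay farther apart in SP than in LP. The mean over 8 pairs of the median absolute difference was 0.362 ± 0.154 (SD, n = 8) in SP and 0.161 ± 0.025 in LP (exact permutation test, two-sided, p = 0.000466, adjusted over 2 comparisons 0.000932). In Migrant it was 0.226 ± 0.173, and the difference from SP did not pass (exact permutation p = 0.126, adjusted 0.126). There the ZT22 pair stood apart at 0.651, and the other 7 Migrant pairs lay between 0.132 and 0.199.

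**Figure D4:**
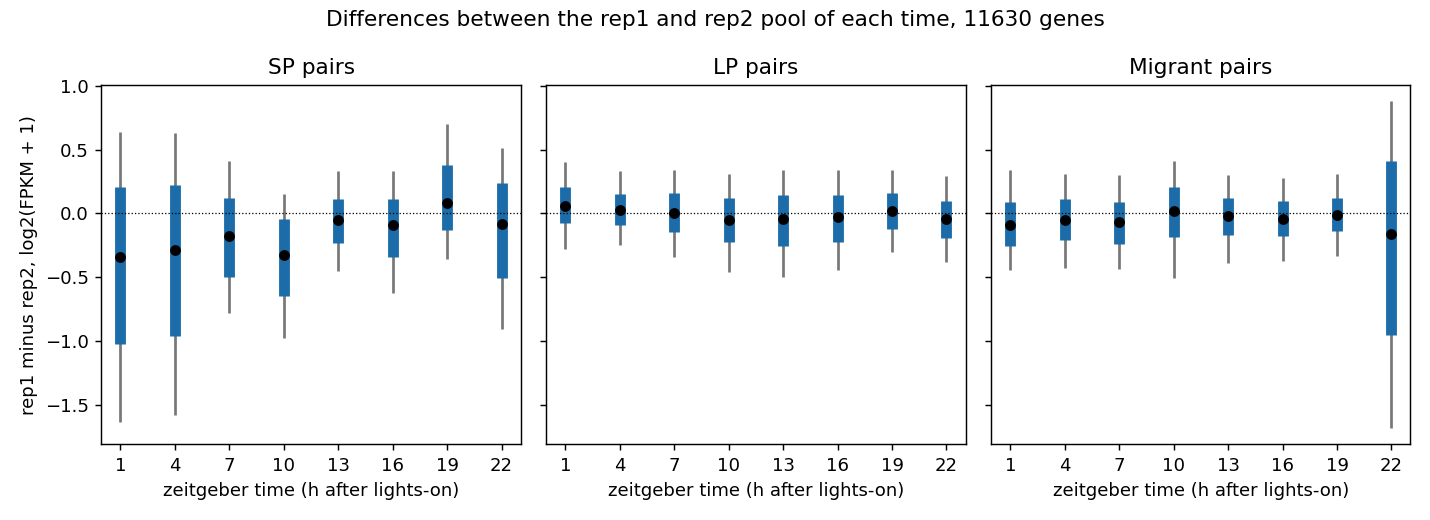
Rep1 minus rep2 difference of 11630 genes at each time in SP, LP and Migrant, on the log2(FPKM + 1) scale. Points are medians, thick bars the 25th to 75th percentile and thin bars the 10th to 90th percentile. SP medians run from -0.34 at ZT1 to -0.05 at ZT13 and are above 0 at ZT19 alone.

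The ZT19 pair ran against the other SP pairs, which was known before it was set apart. Its median difference was 0.08, higher in rep1, while the other 7 medians were between -0.34 and -0.05. At ZT19, 39.8% of genes were higher in rep2, against 56.9% to 78.5% at the other times. Of 4063 genes with 1 sign at the other 7 pairs, 3322 (81.8%) had the opposite sign at ZT19. Of all tested genes, 69.2% had a ZT19 sign opposite to their difference over the other 7 pairs. Of the 3322 genes, 2756 were higher in rep2 at the other 7 times and 566 in rep1. The genes that kept 1 sign at all 8 pairs numbered 741 (6.37%), 204 higher in rep1 and 537 in rep2, and 422 of them were called.

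Across genes, the differences of the other 7 pairs correlated with each other at 0.216 to 0.725 (Pearson, median 0.309, 21 combinations, 11630 genes). Their correlation with the ZT19 differences was -0.386 to -0.106. Genes are not independent replicates, and each value shares its 2 libraries, so these are descriptions. The highest value was between ZT1 and ZT4.

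None of the 37 genes had the opposite sign at ZT19. Their choice favoured this, because most of the fits they had to pass include the ZT19 pair. The rule for named genes in SP also asked for 1 sign at all 8 pairs. DPOGS212555 had a difference of -4.47 there and DPOGS204974 one of 3.07. Among genes with a mean SP FPKM of at least 1 and at least 10 recovered reads per SP library, called or not, those farthest apart in the ZT19 pair were DPOGS204974 and DPOGS208413 (2.27), higher in rep1, and DPOGS211342 (-4.66) and DPOGS212555, higher in rep2. DPOGS211342, on DPSCF300173 from 726957 to 728023, had an FPKM of 315 in the rep1 pool of ZT19 and 7962 in the rep2 pool. Over all 8 times its rep1 values ran from 315 to 7323 with a median of 1374 and its rep2 values from 1137 to 7962 with a median of 2593. The groups overlapped, and it was not called with 8 pairs (limma, adjusted p = 0.158). DPOGS208413, on DPSCF300241 from 124170 to 125610, was higher in rep1 at 4 of 8 pairs (limma, adjusted p = 0.835). Its rep2 value at ZT16 was 145 FPKM, and the other rep2 values lay between 2.17 and 15.3.

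Several measures of the libraries moved with the replicate number and turned at ZT19. The 10 most abundant genes held 10.6% ± 1.09 (SD, n = 8) of the reads in rep1 and 9.08% ± 0.67 in rep2, higher in rep1 at 7 of 8 pairs (exact paired sign-flip permutation, two-sided, p = 0.0234, adjusted over 7 measures 0.0438). The median log2(FPKM + 1) was 3.99 ± 0.21 in rep1 and 4.25 ± 0.06 in rep2 (exact permutation p = 0.0312, adjusted 0.0438), higher in rep2 at 7 of 8 pairs. At ZT19 it was 4.30 in rep1 and 4.14 in rep2. At least 2-fold from the LP mean of the same time were 4168 ± 868 genes in rep1 and 2552 ± 904 in rep2 (exact permutation p = 0.0312, adjusted 0.0438). ZT19 was the exception, with 2480 and 3728. The smallest p that 8 pairs allow is 0.00781.

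DPOGS214898, a gene with a span of 70 bases on DPSCF300579, was chosen after its values were seen, so its permutation p is no independent test. This gene held the highest FPKM, from about 1929 recovered reads per rep1 library and 3996 per rep2 library. It averaged 610665 in rep1 and 1383510 in rep2, and rep2 was higher at 7 of 8 pairs (exact permutation p = 0.0156, adjusted 0.0438). In the limma fit across all genes it was not called, with a difference of -1.22 ± 0.33 (SE; adjusted p = 0.0507), and with the main axis as a covariate the difference was -0.15 ± 0.10 (adjusted p = 0.701). Reads in genes were 7.63 M ± 1.12 in rep1 and 6.92 M ± 0.69 in rep2 (exact permutation p = 0.0781, adjusted 0.0911). Genes listed at 0 numbered 2633 ± 147 and 2585 ± 76 (exact permutation p = 0.461, adjusted 0.461). The part of these measures in the gene calls was not tested.

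In SP the median difference was larger for long genes than for short ones. It also varied with level, from -0.02 in the lowest of 10 level bins to -0.27 in a middle bin and -0.01 in the highest. Span and level were not separated. With the tested genes in 10 bins of 1163 by genomic span, from start to end on the scaffold, the median rep1 minus rep2 difference went from -0.08 in the bin of the shortest (61 to 626 bases) to -0.38 in the longest (14339 to 331231 bases). At ZT19 the same medians went from 0 to 0.24. In LP they lay between -0.03 and 0.03. In Migrant they ran the other way, from -0.15 in the bin of the shortest genes to -0.01 in that of the longest. The mean of the longest bin minus that of the shortest was -2.04 ± 0.09 (SD, n = 8) in rep1 and -1.84 ± 0.12 in rep2 on the log2(FPKM + 1) scale (exact permutation p = 0.0234, adjusted 0.0438), lower in rep1 at 7 of 8 pairs.

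The main axis of difference between pools of the same time held 58.4% of the variance left after time means were removed. With each library's place on that axis as a covariate, 38 genes (0.327%) were called, 22 higher in rep1 and 16 in rep2. Of these, 29 were among the 790 and 23 among the 37. The axis was drawn from the same libraries and takes part of the rep1 minus rep2 difference with it. By replicate number, 37 of the 38 had the same sign in LP, against 60.8% of all tested genes, and 34 in Migrant, against 56.6%. LP called 16 of them and Migrant 12, with 0 opposite in either group.

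Grouped by scaffold, nearly all differences pointed to rep2. Of 774 scaffolds with a tested gene, 294 had at least 10, and these held 10423 tested genes (89.6%). A scaffold's value is the mean log2(FPKM + 1) of its tested genes. At an adjusted p under 0.05 (limma), 129 scaffolds (43.9%) were called, 0 higher in rep1 and 129 in rep2, and 272 of 294 had a negative difference. This direction was that of all genes: with median-ratio scaling 0 scaffolds were called and with quantile normalization 2. Without ZT19 there were 210, and without any 1 of ZT1, ZT4, ZT7, ZT10 or ZT22 at most 1. Without ZT16 there were 51 and without ZT13 127.

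At ZT19, 234 of the 294 scaffolds were higher in rep1. For 151 scaffolds ZT19 was the only pair of opposite sign, and 107 of these were among the called. Only 10 scaffolds had 1 sign at all 8 pairs, and 9 of them were called, all higher in rep2.

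**Figure D5:**
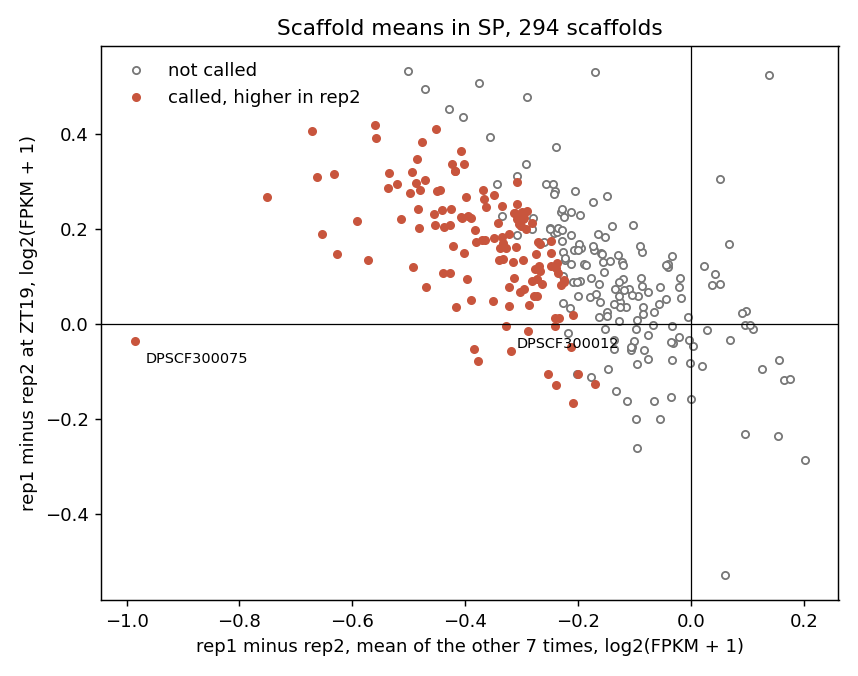
Mean rep1 minus rep2 difference of each of 294 scaffolds in SP, over the other 7 times (x) and at ZT19 (y), on the log2(FPKM + 1) scale. Red points were called with 8 pairs. Most lie at negative x and positive y, and DPSCF300075 lies farthest left, at -0.99 and -0.04.

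Scaffold DPSCF300075, the home of DPOGS212555, had the largest difference of the 9. Its 18 tested genes averaged 3.06 in rep1 and 3.93 in rep2, a difference of -0.87 ± 0.15 (SE; limma, adjusted p = 0.0251). The pair values ran from -1.61 at ZT1 to -0.04 at ZT19. Of its 18 genes, 4 were called, all higher in rep2, where 5.34% of all tested genes were called higher in rep2. The scaffold was picked by its mean difference, so this share is no separate test. Without DPOGS212555, an alternative added after the data were examined, the other 17 genes gave -0.68 ± 0.16 (adjusted p = 0.032), higher in rep2 at 7 of 8 pairs and 0.22 at ZT19. With the main axis as a covariate, the 17 genes without DPOGS212555 gave -0.11 (limma, adjusted p = 0.927). In LP the scaffold's difference was -0.34 with that gene and -0.12 without it, and in Migrant -0.36 and -0.24. The other 4 scaffolds named by the rule, DPSCF300314, DPSCF300023, DPSCF300012 and DPSCF300322, had differences of -0.34, -0.34, -0.29 and -0.29. All 5 lost their calls with median-ratio scaling, where their adjusted p lay between 0.0552 and 0.118, and without the ZT7, ZT10 or ZT22 pair.

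Scaffold DPSCF300012 held more of the 37 genes than any other, 7 of its 74 tested genes (9.46%), and the 37 were spread over 26 scaffolds. DPSCF300005 followed with 3 of 71. On DPSCF300012, 5 of the 7 were higher in rep2. The farthest apart of them starts at 39695 (-1.76), and the others start at 324034 (-0.95), 325196 (-0.89), 417639 (-0.76) and 421442 (-0.85). The 2 genes higher in rep1 start at 648346 (0.47) and 783553 (0.81). In all, 12 of its 74 genes were called higher in rep2 and 4 higher in rep1, against 5.34% and 1.45% of all tested genes. Because it was picked for holding more of the 37 than any other, and all 37 were called, this is no test of the scaffold. Its mean had an SP difference of -0.29 ± 0.07 (SE; limma, adjusted p = 0.0319), and was -0.14 in LP and -0.20 in Migrant, neither called there (adjusted p = 0.229 and 0.0644).

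The next tests asked whether the SP difference itself departed from that of LP, in a model of all 48 libraries. By replicate number, 2425 genes (20.9%) departed (limma), 459 upward and 1966 downward. By sex label, male minus female, 2972 genes (25.6%) departed, 503 upward and 2469 downward. With median-ratio scaling the splits were 1086 and 1112 by number and 1229 and 1380 by label. By replicate number the count was 4047 without ZT19 but 5 to 10 without ZT1, ZT4, ZT7 or ZT10, and 914 without ZT16. By sex label it was 1450 to 4176 over the fits without 1 pair. Of the 37 genes, 10 departed by replicate number and 35 by sex label. The contrast by label adds the SP and LP rep1 minus rep2 differences, and the 37 were picked by their SP difference. Genes with the same sign in both groups thus tend to depart by label, so these counts are no test of number against label.

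By sex label the genes named were DPOGS212555, DPOGS203943, DPOGS204974 and DPOGS213644. DPOGS212555 departed by -8.15 ± 0.18 (SE; limma, adjusted p = 7.22e-21) and DPOGS203943 by -5.94 ± 0.15 (7.06e-20). DPOGS204974 departed by 5.39 ± 0.37 (2.75e-10) and DPOGS213644 by 5.69 ± 0.39 (2.77e-10). DPOGS213644, on DPSCF300165 from 50629 to 56912, had FPKM values of 0.508 to 13.0 in SP rep1 and at most 0.695 in SP rep2, and 3.96 to 21.4 in LP rep1 and at most 0.0842 in LP rep2. By replicate number its SP and LP differences, 2.55 and 3.14, were not shown to differ, with a gap of -0.59 ± 0.39 (SE; limma, adjusted p = 0.267).

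By replicate number the departures from LP were smaller. DPOGS207744, on DPSCF300042 from 733036 to 733259, had SP rep1 values of 4965, 9342 and 16818 FPKM (lowest, median, highest) and SP rep2 values of 3358, 5981 and 8917. In LP the order was turned, with medians of 1605 in rep1 and 2217 in rep2. The departure was 1.17 ± 0.29 (SE; limma, adjusted p = 0.024). DPOGS204974 departed by 1.12 ± 0.37 (adjusted p = 0.0376), but not with a pseudocount of 0.1 (0.116), and 6 of the 8 fits without 1 pair lost it as well. DPOGS205142, on DPSCF300246 from 21290 to 22356, had medians of 0.63 and 2.18 FPKM in SP rep1 and rep2 and of 3.98 and 2.24 in LP, a departure of -1.62 ± 0.40 (adjusted p = 0.024). DPOGS213325, on DPSCF300341 from 12388 to 13105, had medians of 13.6 and 39.5 in SP and of 68.6 and 64.4 in LP, a departure of -1.59 ± 0.48 (adjusted p = 0.0298). DPOGS207744, DPOGS205142 and DPOGS213325 each lost the call without ZT1, ZT7 or ZT10, and the last 2 also without ZT4.

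For scaffolds, 144 (49.0%) departed from LP by replicate number, 5 upward and 139 downward, and 123 (41.8%) by sex label, 1 upward and 122 downward. With median-ratio scaling the counts were 40 and 26, split 22 to 18 and 7 to 19. By number at most 1 departed without ZT1, ZT4, ZT7 or ZT10, and by label 28 to 64 without any 1 of these or ZT16. DPSCF300075 departed by -0.52 by number (limma, adjusted p = 0.0211) and by -1.21 by label (7.43e-06).

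Against Migrant, 1834 genes (15.8%) departed by replicate number (limma), 559 upward and 1275 downward, and 3566 (30.7%) by sex label, 354 upward and 3212 downward. With median-ratio scaling the splits were 1156 and 1132 by number and 1142 and 1278 by label. Fitted with SP and Migrant libraries alone the counts were 11 and 999. Without the ZT22 pair, where the Migrant pools stood apart, they were 2238 and 3259. By number the count was 3732 without ZT19, but 38 without ZT1, 36 without ZT4, 50 without ZT7, 152 without ZT10 and 449 without ZT16, and by label it was 1592, 1312 and 2088 without ZT1, ZT4 and ZT7. Of the 37 genes, 20 departed by replicate number and 33 by sex label.

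DPOGS204974, which was listed at 0 in most Migrant pools, departed by 3.54 ± 0.37 (SE; limma, adjusted p = 5.03e-06) by replicate number, and DPOGS213644 by 2.26 ± 0.39 (adjusted p = 0.00573). DPOGS212555 departed by -1.67 ± 0.18 (5.03e-06) and DPOGS203943 by -1.64 ± 0.15 (5.03e-07). In both of the last, rep2 pools were high in SP and Migrant, and the Migrant values were the lower ones. By sex label DPOGS211681 departed by 4.0 ± 0.17 (limma, adjusted p = 1.97e-14) and DPOGS209204 by 3.74 ± 0.45 (5.7e-06). DPOGS212555 departed by -6.33 ± 0.18 (2.87e-18) and DPOGS203943 by -4.75 ± 0.15 (1.38e-17).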

How the data were processed

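Brains of 48 pools were sequenced as single-end reads, per the labels' protocols. The deposited tables hold FPKM values with their confidence limits. Per the submitters' processing notes, the tools were CASAVA 1.8.2, TopHat2 and Cufflinks. The genome build and annotation are not given in the sources used here. Printed starts are those of the locus column and could differ by 1 base from a browser's.

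Values were analysed as log2(FPKM + 1) for genes with a mean of at least 0.5 FPKM over the 48 libraries. limma 3.58.1 (R 4.3.3, trend and robust options) was run on the SP pools with ZT as a block, since the labels give 1 pool of each number at each ZT; pools of 1 ZT do not share animals. Calls had a Benjamini-Hochberg adjusted p under 0.05. Contrasts with LP and Migrant used all 48 libraries, a mean for each group and ZT, and a replicate term in each group. Tables were handled in pandas 2.3.3 under Python 3.11.15, and plots drawn in matplotlib 3.10.9. The models were tested on simulated data.

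Reads were recovered as (2 FPKM / (upper limit - FPKM)) squared. Between 83.0% and 85.6% of the values under 30 reads in a library came within 0.05 of whole reads, so no count test was run and depth is approximate. Such reads cover counting error only.

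Named genes were the 2 largest differences in each direction per comparison, among called genes with a mean SP FPKM of at least 1, at least 10 recovered reads per SP library and 1 sign at all 8 pairs. For ZT19 they were ranked by size among genes at the same minimum levels, called or not. Named scaffolds were the 5 largest called differences in each direction with 1 sign at all 8 pairs. At most 2 identifiers in each direction are printed per comparison, because none matched a name in the RefSeq gene table used here (assembly MEX_DaPlex). Cell type markers were not run for the same reason, and no sequence is shown. The groups, lists and rules were chosen with earlier results of these data known.

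Alternatives were another pseudocount, 4 filters, 2 scalings, no block, the main axis as a covariate, other empirical Bayes settings, library weights, other sets of libraries and each pair left out.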

Additional observations from a re-analysis of the deposited data

Results flagged for a closer look

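Outlying pools were looked for in 50 groups of 8 values, and 8 were found. Dixon's limit is passed by chance in about 1 in 20 groups, which would give about 2.5. That rate does not hold for genes listed at 0 in 7 of 8 pools, where the single positive value always passes. Several of the 8 concern such genes. These were DPOGS212555 in SP rep1 at ZT1 (0.71 on the log2(FPKM + 1) scale), DPOGS203943 in SP rep1 at ZT16 (0.36), DPOGS204974 in SP rep2 at ZT22 (0.67) and DPOGS211681 in SP rep2 at ZT16 (0.23). DPOGS213644 in SP rep2 at ZT7 (0.76) stood above pools at or near 0. DPOGS208413 stood apart in SP rep2 at ZT16 (7.19). The rep1 pool of ZT19 had a long minus short gene level of -1.84, above the other rep1 pools. The ZT22 pair of Migrant had a median absolute difference of 0.651, above the other Migrant pairs. No cause was tested for these.

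The tests of the SP difference against that of LP or Migrant gave the other entries. By replicate number 2425 genes and 144 scaffolds departed from LP and 1834 genes from Migrant. By sex label these were 2972 genes, 123 scaffolds and 3566 genes. Against LP by number, DPOGS207744 departed by 1.17, DPOGS204974 by 1.12, DPOGS205142 by -1.62 and DPOGS213325 by -1.59. Against LP by label, DPOGS213644 departed by 5.69, DPOGS204974 by 5.39, DPOGS212555 by -8.15 and DPOGS203943 by -5.94. Against Migrant by number, DPOGS204974 departed by 3.54, DPOGS213644 by 2.26, DPOGS212555 by -1.67 and DPOGS203943 by -1.64. Against Migrant by label, DPOGS211681 departed by 4.0, DPOGS209204 by 3.74, DPOGS212555 by -6.33 and DPOGS203943 by -4.75.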

How the results depend on the processing

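Among the values of 25 named results under the alternatives run, 404 kept direction and side of the threshold, 62 kept the direction but lost the call, and 0 changed sign. Counts of calls moved more, and no cause was tested. SP rep1 against rep2: 213 genes with no filter on low values, 1558 with a mean FPKM of at least 2, 2513 with at least 10 recovered reads, 4749 without the replicate block, 38 with the main axis as a covariate, 4970 with library weights and 5047 with all 48 libraries. Genes at least 2-fold apart in those 7 settings: 26, 152, 178, 285, 14, 251 and 314, and 56 with no trend and not robust. Scaffolds: 0 with median-ratio scaling, 2 with quantile normalization, 1 with the axis and 204 with all 48 libraries. Quantile normalization gave 740 and 1826 genes against LP by number and label, 755 and 1796 against Migrant, and 14 and 23 scaffolds. Median-ratio scaling gave 40 and 26 scaffolds. Without the block 2824 genes departed from Migrant by number. With the 2 groups alone, 11 and 999 departed from Migrant. Leaving out 1 pair gave 40 to 5607 genes, 14 to 714 at least 2-fold apart, 0 to 210 scaffolds, 5 to 4047 and 1450 to 4176 genes against LP, 36 to 3732 and 1312 to 4803 against Migrant, and 0 to 186 and 28 to 175 scaffolds. Low levels near 0 rest on a few reads.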
